A study of Mus musculus with 20 samples.

Results

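Bmp4 and the 4 Id genes, Id1, Id2, Id3 and Id4, were followed across 20 mouse RNA-seq libraries in 7 groups. They were chosen by name as a ligand of the bone morphogenetic protein (BMP) pathway and a family of genes that respond to it, and they make up 5 of the 21361 genes in the count table. All 5 passed the filter on low counts that left 16363 genes for testing.

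BMP ligands are secreted factors of the TGF-beta superfamily. They bind pairs of type I and type II receptor kinases, which phosphorylate SMAD1, SMAD5 or SMAD9. The phosphorylated proteins join SMAD4 and enter the nucleus, where the Id genes are among their best known targets. Id proteins have a helix-loop-helix domain but no basic region, so they bind E proteins and keep them off DNA. BMP4 together with the cytokine LIF supports self-renewal of mouse embryonic stem cells (ESCs) in serum-free culture, and in the embryo BMP4 from the extraembryonic ectoderm directs epiblast cells towards primordial germ cells (PGCs).

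Each library was poly(A) RNA from 1 cell line. The ESC Host group (n = 4) held wildtype lines of strain C57Bl6J made from host embryos. The PGC-ESC DKO group (n = 3) had the same strain label and a double knockout of Puma and Noxa, which encode pro-apoptotic BH3-only proteins. The groups ESC BaxHet (n = 1), ESC BaxKO (n = 2) and PGC-ESC BaxKO (n = 5) were heterozygous or knockout for Bax, an effector of mitochondrial apoptosis, and had the strain label C57Bl6J/129SvEvRoEp. The ESC BaxKO lines had been derived earlier. The sources used here do not say how PGC-ESC lines were obtained. Epiblast-like cells (EpiLCs) are a culture model of the formative epiblast. The EpiLC Host group (n = 2) came from ESC Host 3 and 4, and the EpiLC DKO group (n = 3) from PGC-ESC DKO 1 to 3. The growth protocol lists N2B27 medium with LIF, the GSK3 inhibitor CHIR99021 and the MEK inhibitor PD0325901, and it names no BMP ligand. For EpiLCs the medium was not given in the sources used here. Bax genotype and strain label cannot be told apart between the Bax lines and the other lines, and origin and DKO genotype cannot be told apart between PGC-ESC DKO and ESC Host.

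Library totals ran from 14255399 to 33376660 counts. Summed markers followed the labelled cell states: 8 naive pluripotency genes summed to 2609 to 3924 CPM (counts scaled to a common library total) in ESC and PGC-ESC libraries and to 82.0 to 165 CPM in EpiLCs, and 5 formative genes summed to 128 to 288 CPM and to 1576 to 3191 CPM. The formative gene Otx2 overlapped between ESC Host (0.379 to 3.30 CPM) and EpiLC Host (2.81 to 6.94 CPM), though not in DKO cells. It was at 5.37 to 8.96 CPM in PGC-ESC BaxKO. Pou5f1 and Sox2, expressed in both states, were lower in EpiLCs, with means of 1467 and 728 CPM in ESC Host and 709 and 107 CPM in EpiLC Host. A pair of features split the libraries in ways that touch the results. Reads of Rn45s, the ribosomal RNA precursor, made up 17130 to 51924 CPM in 11 libraries. They made up 1913 to 5106 CPM in the remaining 9, which were the 5 lines of PGC-ESC BaxKO, the heterozygous line, ESC Host 1, ESC Host 2 and ESC BaxKO 1. The mean of 4 Y-linked genes was 42.8 to 61.1 CPM in 6 libraries (ESC BaxKO 1 and 2, PGC-ESC BaxKO 2 and 5, PGC-ESC DKO 3 and EpiLC DKO 3) and at most 4.93 CPM in the others.

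In the mouse genome (GRCm38, the assembly that mm10 names; GENCODE vM21 annotation), all 5 are protein-coding genes. Bmp4 lies at chr14:46383520-46390669 on the minus strand, Id1 at chr2:152736251-152737410 on the plus strand, Id2 at chr12:25093799-25097140 on the minus strand, Id3 at chr4:136143497-136145755 on the plus strand and Id4 at chr13:48261228-48266026 on the plus strand. The annotation places other genes on the opposite strand over Bmp4 (Gm15217) and Id4 (A330033J07Rik), each counted at no more than 0.257 and 0.701 CPM in any library. A strand setting of the counting was not given in the sources used here, so reads of Bmp4 or Id4 and of those partners cannot be told apart.

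RefSeq start sites were matched for 4 of the 5 genes, and Id1 had no entry. The 250 bases before each start were searched on both strands for the short sequences that SMAD proteins can bind, GGCGCC and CAGAC. The Id4 window is shown because Id4 had the largest change of the 5 genes in these libraries, and the Id2 and Id3 sites are shown beside it for comparison. Capitals mark the matches. All sequences are from RefSeq, build GRCm38.p6, 5′ to 3′ on the gene's strand.
Id4, chr13:48260866-48261115, plus strand: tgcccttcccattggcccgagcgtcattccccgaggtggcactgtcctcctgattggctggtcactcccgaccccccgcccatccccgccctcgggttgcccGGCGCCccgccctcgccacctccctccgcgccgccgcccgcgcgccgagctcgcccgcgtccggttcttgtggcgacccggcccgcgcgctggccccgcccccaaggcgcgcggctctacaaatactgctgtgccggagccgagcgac
Id2, chr12:25096306-25096335, minus strand: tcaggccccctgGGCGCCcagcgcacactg
Id3, chr4:136143643-136143672, plus strand: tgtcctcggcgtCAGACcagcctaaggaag
Id3, chr4:136143742-136143771, plus strand: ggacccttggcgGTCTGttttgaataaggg
GGCGCC stood 148 bases before the Id4 start and 231 bases before the Id2 start, and 9.59% of 32851 mouse promoter windows of this length hold it. CAGAC occurred at 2 places before the Id3 start, once on each strand (GTCTG is its reverse complement), and 42.2% of windows hold it. No match was found in the Bmp4 window. The longer arrangements GGCGCCNNNNNGTCT, present in 0.0700% of windows, and GTCTAGAC, present in 0.167%, were in none of the 4 windows. The Id2 match and both Id3 matches lie inside the genes as GENCODE draws them, since that annotation starts both genes upstream of the RefSeq starts.

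Levels of the 5 genes were low to moderate, and their ranking changed with cell state. Scaled to exon length, the mean in PGC-ESC DKO was highest for Id3 (16.7 CPM per kb), followed by Id4 (5.69), Id2 (2.83), Id1 (1.64) and Bmp4 (1.29), and ESC Host had the same order. In EpiLC DKO it was Id3 (5.63 CPM per kb), Id2 (4.26), Id1 (3.23), Bmp4 (0.675) and Id4 (0.573). In EpiLC Host the length-scaled order was Id1 (6.26 CPM per kb), Id3 (4.59), Id2 (2.63), Bmp4 (0.576) and Id4 (0.499). Id4 therefore went from the second most abundant Id transcript to the least abundant. Counts per library were 131 to 883 for Id3, 42 to 1003 for Id4 and 8 to 186 for Id1, and counting error is larger where they are low. In the EpiLC libraries Id4 had 42 to 65 counts and Id1 30 to 186.

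**Figure D1:**
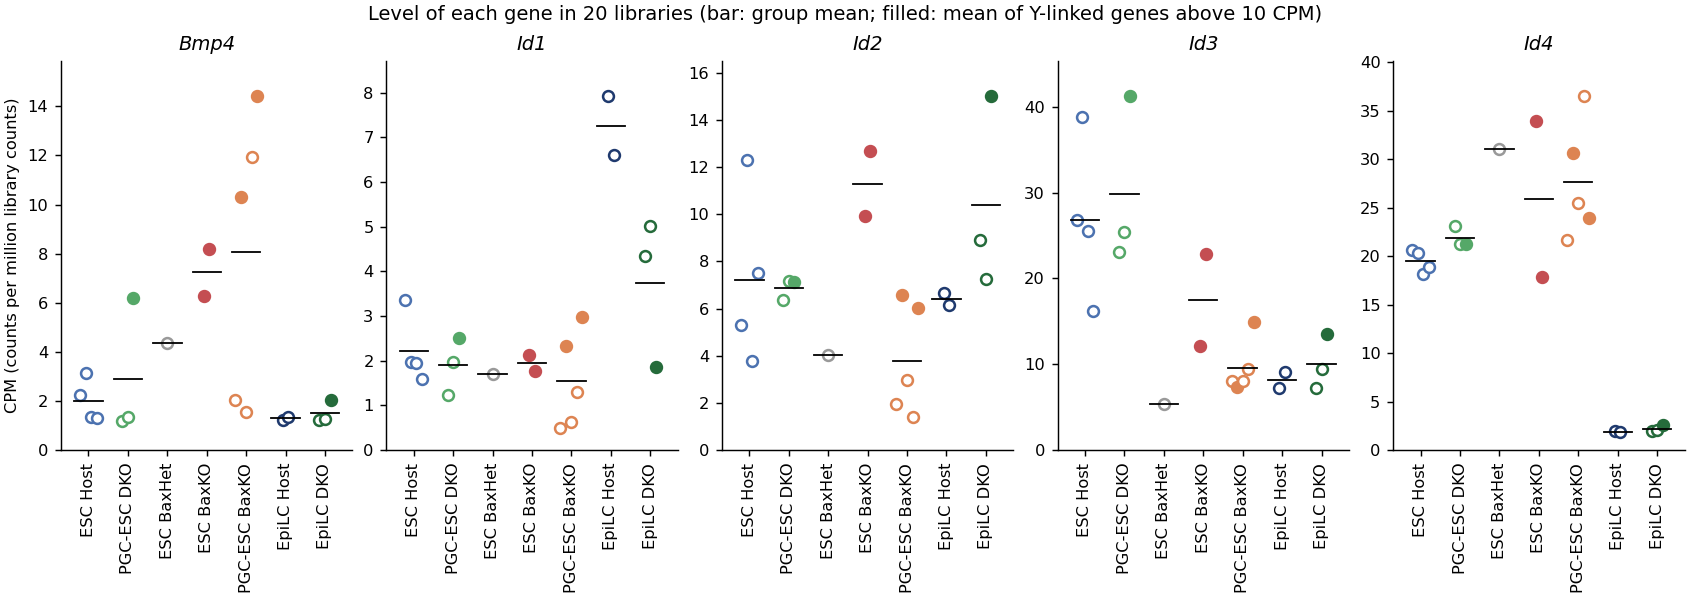
CPM of Bmp4, Id1, Id2, Id3 and Id4 (vertical axes, linear from 0) in each of the 20 libraries, by group; each circle is 1 library, the bar is the group mean, and filled circles are libraries whose 4 Y-linked genes averaged above 10 CPM. Id4 is at 1.89 to 2.61 CPM in the 5 EpiLC libraries and at 17.9 CPM or more in all others, and Bmp4 ranges from 1.57 to 14.4 CPM within PGC-ESC BaxKO.

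Id4 and Id3 were lower in EpiLCs than in their parent groups in both genotypes, while Id1 was higher in EpiLC Host and Bmp4 and Id2 did not pass the test. Id4 fell about 11-fold and Id3 more than 3-fold. A gene is said to be called, or to have risen or fallen, where its adjusted p was under 0.05 in edgeR's quasi-likelihood test over 16363 genes. Of the 5 genes, 3 were called in EpiLC Host against ESC Host, where 44.0% of all tested genes were called (22.4% higher and 21.7% lower). In EpiLC DKO against PGC-ESC DKO, 2 of the 5 were called, where 47.6% of all tested genes were (25.1% higher and 22.5% lower). At these shares, the count of members alone does not set them apart.

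Id4 is known for roles in neural and germline stem cells. It was at 20.6, 20.4, 18.2 and 18.9 CPM in ESC Host 1 to 4 and at 1.96 and 1.89 CPM in EpiLC Host 3 and 4. In PGC-ESC DKO 1 to 3 it was at 23.1, 21.3 and 21.3 CPM, and in the matching EpiLCs at 1.95, 2.06 and 2.61 CPM. No EpiLC library came near any parent library. The log2 fold change was -3.49 ± 0.29 (SE) in Host cells, an 11.2-fold lower level (edgeR adjusted p = 5.2e-08), and -3.52 ± 0.25 in DKO cells, 11.5-fold lower (adjusted p = 7.4e-09). Every one of the 5 lines moved the same way, by -3.08 to -3.72 on the log2 scale.

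Id3, the most abundant of the 5 transcripts per length in ESC Host, followed the same direction with a smaller change. It was at 26.8, 38.9, 25.5 and 16.3 CPM in ESC Host 1 to 4 and at 7.28 and 9.16 CPM in EpiLC Host. PGC-ESC DKO 1 to 3 had 23.0, 25.4 and 41.2 CPM and their EpiLCs 7.25, 9.43 and 13.6 CPM. In neither genotype did the groups overlap. The log2 fold change was -1.83 ± 0.38 in Host cells (edgeR adjusted p = 8.1e-04) and -1.76 ± 0.34 in DKO cells (adjusted p = 3.8e-04), and the 5 lines changed by -1.15 to -1.95.

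Id1, the family member most often used as a readout of BMP signalling, went the other way in Host cells. Its levels were 3.37, 1.98, 1.95 and 1.59 CPM in the ESC Host lines 1 to 4 and rose to 7.91 and 6.60 CPM in EpiLC Host 3 and 4, with no overlap. The log2 fold change was 1.58 ± 0.52, a 2.98-fold higher level (edgeR adjusted p = 0.0207). The call was lost when 1 EpiLC library was left out, with adjusted p = 0.116 without EpiLC Host 3 and 0.0581 without EpiLC Host 4. Under the other scaling tried, RLE, Id1 stayed higher and Id3 and Id4 lower in Host EpiLCs.

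In the DKO lines Id1 did not pass the test (log2 fold change 0.80 ± 0.53, edgeR adjusted p = 0.224). PGC-ESC DKO 1 to 3 had 1.23, 1.96 and 2.51 CPM and EpiLC DKO 1 to 3 had 4.34, 5.01 and 1.87 CPM. Lines 1 and 2 changed by 1.55 and 1.02 on the log2 scale and the Host lines by 1.83 and 1.68, while line 3 changed by -0.50. Line 3 was also the DKO line with Y-linked expression and had the highest Id2 of all 20 libraries in its EpiLCs, at 14.99 CPM. The part of Y-linked expression in the Id1 value of line 3 was not tested.

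Id2, which is known for roles in lymphoid and mammary development, showed no common direction. It was at 5.30, 12.3, 3.77 and 7.51 CPM in ESC Host and at 6.68 and 6.15 CPM in EpiLC Host, inside the parent range. In PGC-ESC DKO it was at 6.37, 7.16 and 7.14 CPM and in EpiLC DKO at 8.93, 7.26 and 14.99 CPM. On library totals all EpiLC DKO values lay above the highest parent library. With TMM, the scaling used for the folds, EpiLC DKO 2 was at 6.78 CPM, below the PGC-ESC DKO range of 6.98 to 8.24 CPM. The log2 fold changes were -0.31 ± 0.53 (95% interval -1.42 to 0.81) and 0.40 ± 0.50 (-0.65 to 1.44), and the lines changed by -0.61 to 0.97.

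Bmp4, the ligand, stood at 2.05 CPM or less in all EpiLC libraries. It was at 2.23, 3.12, 1.36 and 1.29 CPM in ESC Host and at 1.23 and 1.36 CPM in EpiLC Host. PGC-ESC DKO 1 to 3 had 1.199, 1.33 and 6.18 CPM and EpiLC DKO 1.23, 1.27 and 2.05 CPM. The ranges overlapped, and the log2 fold changes of -0.74 ± 0.80 (95% interval -2.41 to 0.93) and -1.10 ± 0.74 (-2.64 to 0.45) did not pass the test. Lines 1 and 2 of the DKO set and both Host lines changed by -0.17 to -0.35, and DKO line 3 by -1.64.

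**Figure D2:**
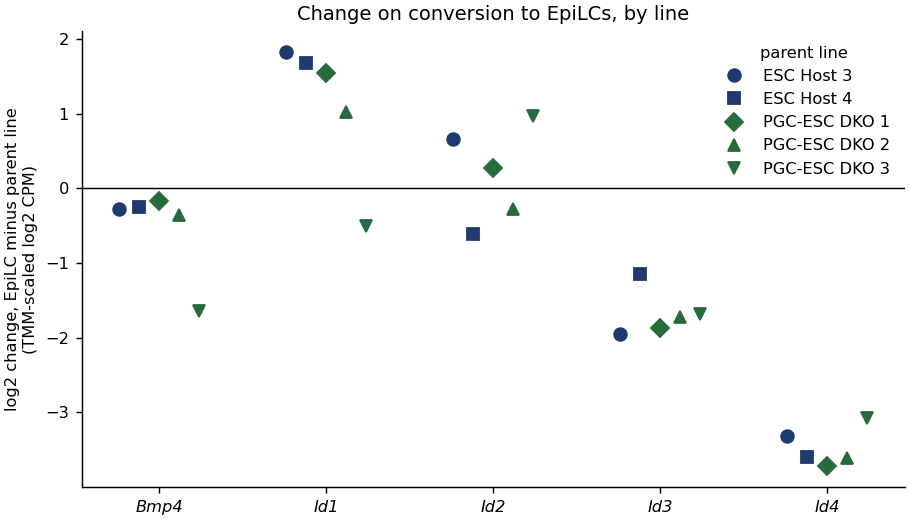
Change from parent line to EpiLC of each gene (horizontal axis) in each of the 5 lines, as the difference of TMM-scaled log2 CPM (vertical axis); each symbol is 1 line, Host lines in blue and DKO lines in green. Id4 and Id3 lie below 0 in all 5 lines, Id1 lies above 0 in 4 lines and at -0.50 in DKO line 3, and Id2 lies on both sides of 0.

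The conversion did not differ detectably between genotypes for any of the 5 genes. The difference between the DKO and the Host response was called for 0 of the 5 by edgeR, with 0 at an unadjusted p under 0.05 and 0 by DESeq2, where 0.00611% of tested genes were called. Its estimate was -0.04 ± 0.35 for Id4 (95% interval -0.77 to 0.70), 0.07 ± 0.48 for Id3 (-0.94 to 1.08) and -0.77 ± 0.75 for Id1 (-2.36 to 0.81). Between EpiLC DKO and EpiLC Host themselves, 0 of the 5 were called by edgeR, with 0 at an unadjusted p under 0.05 and 0 by DESeq2, and 0.0428% of tested genes were called. Id1 was at 1.87 to 5.01 CPM in EpiLC DKO and 6.60 to 7.91 CPM in EpiLC Host, with a log2 fold change of -0.94 ± 0.56 (95% interval -2.12 to 0.24). Id2 was at 7.26 to 14.99 CPM in EpiLC DKO and 6.15 to 6.68 CPM in EpiLC Host, with a log2 fold change of 0.71 ± 0.56 (-0.47 to 1.89). The ranges of these genes did not overlap, but the share of all genes without overlap between the groups was not computed.

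Receptors, SMAD partners and antagonists of the pathway mostly rose in EpiLCs where they moved at all. Beside the 5 genes, 61 pathway genes were listed, and 48 of them were tested. In Host cells 19 rose and 2 fell, and in DKO cells 23 rose and 1 fell, so 39.6% and 47.9% of the 48 were called higher. The share called in either direction, 43.8% and 50.0%, was near that of all genes. The median log2 fold change of the 48 was 0.45 in Host and 0.69 in DKO cells, beside -0.03 and 0.01 over all tested genes. The same 17 genes moved in the same direction in both conversions, which is 81.0% of the Host list and 70.8% of the DKO list, and 0 moved in opposite directions.

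Of the 8 ligands tested, Bmp4 included, 3 rose in each conversion and 1 fell in Host cells. Bmp8b, a ligand needed for germ cell formation, ranged from 0.249 to 1.02 CPM in ESC Host, and EpiLC Host had 7.39 and 12.2 CPM (log2 fold change 3.73 ± 0.38) and changed by 4.41 ± 0.45 in DKO cells. Its near-identical neighbour Bmp8a makes this count uncertain, since reads of the pair could be split. Bmp6 rose by 1.77 ± 0.38 and 2.15 ± 0.40, and Gdf7 by 1.83 ± 0.45 and 2.52 ± 0.52. Gdf5, a growth factor of joint formation, fell by 2.67 ± 0.83 on the log2 scale in Host cells, a call lost without either EpiLC Host library (adjusted p = 0.0707 and 0.120), and was at -0.92 ± 0.69 in DKO cells.

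Of the 7 receptors, 3 rose in Host and 5 in DKO cells, and none fell. Acvr2b, a type II receptor, was at 43.2 to 63.6 CPM in ESC Host and at 150 and 157 CPM in EpiLC Host, and rose by 1.33 ± 0.13 and 1.48 ± 0.13. Bmpr2, the type II receptor dedicated to BMPs, rose by 1.54 ± 0.27 and 1.61 ± 0.28. Bmpr1b, a type I receptor, was at no more than 0.308 CPM in ESC Host and at 2.85 and 3.43 CPM in EpiLC Host, a change of 4.55 ± 0.57, with 3.14 ± 0.56 in DKO cells. Bmpr1a, another BMP type I receptor, rose by 0.59 ± 0.19 in DKO cells, a call lost without EpiLC DKO 2 or PGC-ESC DKO 2 (edgeR adjusted p = 0.0502 and 0.0907), and was at 0.46 ± 0.20 in Host cells (edgeR adjusted p = 0.0663). With the parent line as a replicate block the Host value became 0.83 ± 0.20 and was called (adjusted p = 0.00830), as it was in 5 other fits.

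Of 11 SMADs and regulators, 6 rose in Host and 5 in DKO cells. Skil, the co-repressor SnoN, was at 22.8 to 44.9 CPM in ESC Host while EpiLC Host had 198 and 210 CPM, a rise of 2.39 ± 0.26, with 2.76 ± 0.27 in DKO cells. Its relative Ski rose by 1.06 ± 0.19 and 0.95 ± 0.19. Zfp423, a zinc finger partner of SMAD1 and SMAD4, was at 3.03 to 6.62 CPM in ESC Host and at 53.1 and 61.6 CPM in their EpiLCs, a rise of 3.37 ± 0.50, with 3.25 ± 0.53 in DKO cells. Smad5, a BMP receptor substrate, rose by 0.42 ± 0.15 and 0.80 ± 0.14. The Host call of Smad5 was lost without either EpiLC library or without ESC Host 3 or 4, at adjusted p of 0.0624 to 0.130, when only the compared groups were fitted (0.136) and with no filter on low counts (0.0521).

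Antagonists outside the cell rose too, 4 of 8 tested in each conversion. Nbl1 rose by 3.78 ± 0.45 and 3.90 ± 0.55, and Twsg1, which binds BMPs together with chordin, by 0.84 ± 0.24 and 0.83 ± 0.24. The Twsg1 call in Host cells was lost without EpiLC Host 3 (adjusted p = 0.122) and with only the compared groups fitted (0.0534). Chrdl1 was at 0.809 to 1.39 CPM in the EpiLC libraries and at no more than 0.114 CPM in ESC Host and 0.0923 CPM in PGC-ESC DKO, and was called in both. Nog, encoding noggin, was called in DKO cells (2.52 ± 0.91, adjusted p = 0.0295, lost without EpiLC DKO 2 or 3 or PGC-ESC DKO 1 or 3, at 0.0572 to 0.125) and was at 1.02 ± 0.77 in Host cells.

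Other genes known to respond to BMPs moved in both directions, with 2 of 14 higher and 1 lower in Host and 4 higher and 1 lower in DKO cells. Hand1, a mesoderm and trophoblast factor, rose by 3.82 ± 0.69 and 3.14 ± 0.73 from low levels. Tfap2a, an ectoderm factor, fell by 2.31 ± 0.59 and 2.29 ± 0.51, and the Host call was lost without EpiLC Host 4 (adjusted p = 0.0757). Msx1 was called in Host cells (2.67 ± 0.80, lost without EpiLC Host 3 at adjusted p = 0.103), and its DKO value of 1.87 ± 0.82 passed with the replicate block (0.0463), with only the compared groups (0.0373), with the Rn45s covariate (0.0450) and without PGC-ESC DKO 3 (0.0273). Dlx3, a homeobox gene, was called in DKO cells (2.54 ± 0.67). In Host cells it was at 1.37 ± 0.62 (edgeR adjusted p = 0.0807), and it was called with the block (2.24 ± 0.62, 0.0152) and in 3 other fits.

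E proteins are the partners that Id proteins hold back. Of the 4 genes listed, Tcf3, Tcf4, Tcf12 and the E protein partner Tcf15, 1 rose in Host and 2 in DKO cells. Tcf15, a factor of epiblast priming known to be restrained by Id proteins, ranged from 3.65 to 11.7 CPM in ESC Host and was at 50.4 and 61.8 CPM in EpiLC Host, a rise of 2.55 ± 0.50. It rose by 3.05 ± 0.54 in DKO cells. Tcf12, an E protein, rose by 0.80 ± 0.24 in DKO cells, a call lost without EpiLC DKO 3 or PGC-ESC DKO 2 (edgeR adjusted p = 0.0617 and 0.0708), and was at 0.51 ± 0.25 in Host cells (adjusted p = 0.111), or 0.96 ± 0.23 and called with the block (0.00766).

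**Figure D3:**
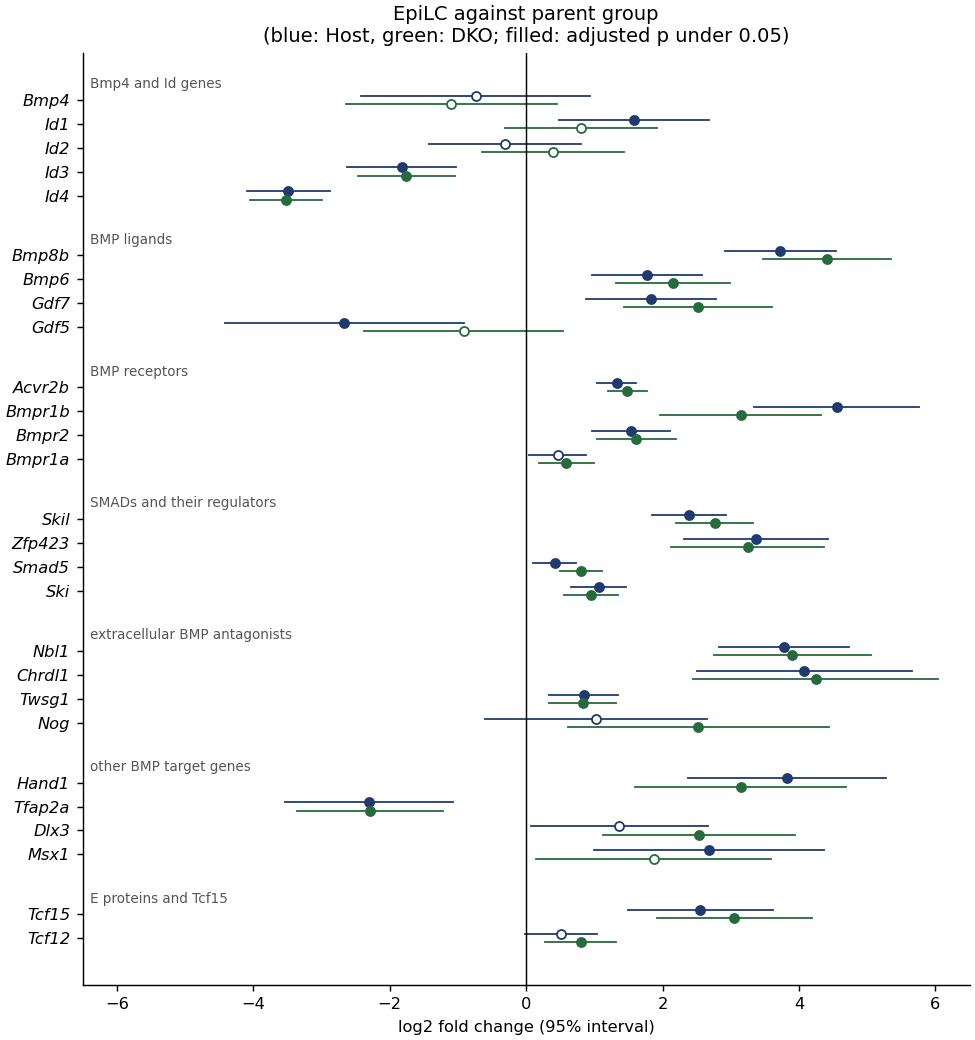
Log2 fold change of EpiLCs against their parent group (horizontal axis) with its 95% interval, for the 5 genes and the named pathway genes by role; blue is Host, green is DKO, and filled circles are called at an adjusted p under 0.05. Id4 and Id3 lie left of 0 in both conversions, as do Tfap2a and Gdf5, while named receptors, SMAD regulators and antagonists lie right of 0; the parent level of Chrdl1 in PGC-ESC DKO rests on 3 counts.

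Some markers of other cell types also differed between EpiLCs and parents, where 44.0% (Host) and 47.6% (DKO) of all tested genes were called. The lists are short, and their counts called were not tested against those shares. A list of 7 fibroblast and feeder genes summed to 2.18 to 6.28 CPM in the parent groups and to 15.4 to 22.8 CPM in EpiLCs, with 3 of 4 tested members called higher in both conversions. A primitive endoderm list of 7 genes summed to 6.38 to 14.8 CPM in the parents and 13.2 to 31.0 CPM in EpiLCs, with 1 of 7 called, and 5 neuroectoderm genes to 93.3 to 174 and 200.2 to 307 CPM, with 3 called higher and 1 lower. A germ cell list of 6 genes summed to 151 to 190 CPM in the parents and 66.7 to 92.3 CPM in EpiLCs, with 1 called higher and 2 lower in both conversions. Trophoblast and mesoderm lists moved in both directions: of 7 tested trophoblast genes 2 rose and 2 fell in Host and 2 rose and 3 fell in DKO cells, and of 6 mesoderm genes 2 and 3 rose and 1 fell in each. The trophoblast list shares Hand1, Tfap2a and Gata3 with the BMP targets, and the mesoderm list shares Hand1. Their part in the changes of Id3, Id4 and the pathway genes was not tested. In bulk RNA, fewer cells expressing a gene and less RNA per cell cannot be told apart.

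Within ESCs, no member was called between lines of PGC origin and embryo-derived lines of the same strain label. Between PGC-ESC DKO and ESC Host, 0 of the 5 genes were called by edgeR, with 0 at an unadjusted p under 0.05 and 0 by DESeq2, and 0.116% of all tested genes were called. Id4 was at 21.3 to 23.1 CPM in PGC-ESC DKO and at 18.2 to 20.6 CPM in ESC Host, a small shift without overlap (log2 fold change 0.24 ± 0.20, 95% interval -0.19 to 0.66). Bmp4 was at 0.58 ± 0.67 (-0.83 to 1.98), and without PGC-ESC DKO 3, the high line, it was -0.53.

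Between PGC-ESC BaxKO and ESC BaxKO, 0 of the 5 genes were called by edgeR and 0 by DESeq2, with 2 at an unadjusted p under 0.05, and 0.0367% of all tested genes were called. The 2 were Id2 and Id3. Id2 levels were 1.96, 6.57, 2.98, 1.41 and 6.01 CPM in lines 1 to 5 of PGC-ESC BaxKO and 9.93 and 12.7 CPM in the ESC BaxKO pair, with no overlap. Its log2 fold change was -1.57 ± 0.48 (95% interval -2.58 to -0.56, edgeR adjusted p = 0.463). Id3 was at 8.04, 7.31, 8.05, 9.44 and 14.9 CPM against 12.1 and 22.9 CPM, a difference of -0.89 ± 0.33 (-1.57 to -0.20, adjusted p = 0.463). Both ESC BaxKO lines had Y-linked expression and 2 of the 5 PGC-ESC BaxKO lines did. With that as a covariate the differences were -1.14 ± 0.42 for Id2 and -0.56 ± 0.31 for Id3, and neither was called.

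Id3 was lower in PGC-ESC BaxKO than in ESC Host and PGC-ESC DKO, and Bmp4 was higher than in ESC Host, a call that 10 of 16 alternative fits did not keep. The 16 include a block by replicate number, though these groups share only numbers and no lines. Of the 5 genes, 2 were called in PGC-ESC BaxKO against ESC Host, where 17.3% of tested genes were called, and 1 in PGC-ESC BaxKO against PGC-ESC DKO, where 23.6% were. In ESC BaxKO against ESC Host 0 were called by edgeR and 0 by DESeq2, with 1 at an unadjusted p under 0.05, and 5.02% of tested genes were called. The comparisons with ESC Host share those 4 libraries. Other cell type markers also differed in PGC-ESC BaxKO against ESC Host, with 4 of 6 germ cell genes called (3 higher, 1 lower), 4 of 7 trophoblast genes (2 higher, 2 lower) and 3 of 7 primitive endoderm genes, all lower. Against PGC-ESC DKO these were 1 of 6 (higher), 2 of 7 (lower) and 0 of 7. The summed germ cell level was 165 to 340 CPM in PGC-ESC BaxKO and 151 to 183 CPM in ESC Host, and that of primitive endoderm 4.19 to 6.87 and 6.47 to 14.8 CPM. Their part in the Bmp4 and Id3 differences was not tested.

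Id3 did not overlap between the groups: the highest PGC-ESC BaxKO line, at 14.9 CPM, was below the lowest ESC Host line, at 16.3 CPM, and the lowest PGC-ESC DKO line, at 23.0 CPM. The log2 fold change was -1.56 ± 0.27 against ESC Host (edgeR adjusted p = 0.00126) and -1.79 ± 0.29 against PGC-ESC DKO (adjusted p = 7.0e-04). The value against ESC Host was called in all 16 alternative fits, at adjusted p of 1.6e-06 to 0.00860. Against PGC-ESC DKO the Rn45s sets coincide with the groups, and with the Rn45s set as a covariate the value was -1.81 ± 0.46 and no longer called (0.0620). ESC BaxKO, at 12.1 and 22.9 CPM, lay between, with -0.67 ± 0.36 against ESC Host (95% interval -1.42 to 0.08), and the ESC BaxHet line had the lowest Id3 of all libraries, 5.34 CPM.

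Bmp4 was spread widely within the Bax lines. Lines 1 to 5 of PGC-ESC BaxKO had 2.02, 10.3, 1.57, 11.9 and 14.4 CPM, and it was at 6.29 and 8.18 CPM in the ESC BaxKO pair and at 4.35 CPM in the heterozygous line. PGC-ESC BaxKO 1 and 3 lay inside the ESC Host range of 1.29 to 3.12 CPM and the other 3 lines were above it. The log2 fold change against ESC Host was 1.96 ± 0.60, or 3.88-fold (edgeR adjusted p = 0.0339). The call was lost without ESC Host 1, 3 or 4 or PGC-ESC BaxKO 2, 4 or 5 (adjusted p of 0.0505 to 0.0887), with only the compared groups (0.0888) and with the Rn45s covariate (0.144).

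Higher Bmp4 mostly went with Y-linked expression, a split looked at after the data were seen and not tested. The 5 ESC and PGC-ESC libraries with Y-linked expression had 6.18 to 14.4 CPM of Bmp4, and the other 10 had 1.199 to 4.35 CPM apart from PGC-ESC BaxKO 4, at 11.9 CPM with no Y-linked reads. Apart from PGC-ESC DKO 3, the 5 were Bax lines, so this contrast mixes Y-linked expression with Bax genotype and strain label. PGC-ESC DKO 3, the only DKO parent line with Y-linked expression, had 6.18 CPM beside 1.199 and 1.33 CPM in the other 2. With Y-linked expression as a covariate, a fit added after the data were seen, the Bmp4 difference between PGC-ESC BaxKO and ESC Host was 1.26 ± 0.50 and was not called (edgeR adjusted p = 0.0866). Mean Bmp4 in PGC-ESC BaxKO was 8.05 ± 5.89 CPM (SD, n = 5), and 5.18 CPM over the 3 lines without Y-linked expression. The difference between PGC-ESC BaxKO and PGC-ESC DKO was 1.38 ± 0.66 (adjusted p = 0.132), and without PGC-ESC DKO 3 it was 2.49 ± 0.75 (0.0332).

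Among the PGC-ESC BaxKO lines, Id1 and Id2 were higher with Y-linked expression than without. Bmp4 overlapped, at 10.3 to 14.4 CPM with it and 1.57 to 11.9 CPM without. Id1 was at 2.32 and 2.98 CPM in lines 2 and 5, which had Y-linked expression, and at 0.491, 0.627 and 1.29 CPM in lines 1, 3 and 4. Id2 was at 6.57 and 6.01 CPM in lines 2 and 5 and at 1.41 to 2.98 CPM in the other 3. Neither gene overlapped between these sets of lines, and the difference was not tested. The share of all genes without overlap was not computed. Over all genes the sets also differed, with a chi-square per gene between libraries of 46.8 to 67.4 across the sets and 6.72 to 26.1 within them. The DKO lines repeated this only in part. PGC-ESC DKO 3, with Y-linked expression, had 2.51 CPM of Id1 beside 1.23 and 1.96 CPM, and 7.14 CPM of Id2 beside 6.37 and 7.16 CPM. EpiLC DKO 3 had 1.87 CPM of Id1 beside 4.34 and 5.01 CPM, and 14.99 CPM of Id2 beside 8.93 and 7.26 CPM. With Y-linked expression as a covariate, Id2 was lower in PGC-ESC BaxKO than in ESC Host (-1.59 ± 0.37, edgeR adjusted p = 0.00775) and than in PGC-ESC DKO (-1.33 ± 0.36, 0.0159). Without the covariate the value was -0.99 ± 0.41 against ESC Host (adjusted p = 0.0966) and -1.004 ± 0.44 against PGC-ESC DKO (0.103), and leaving out PGC-ESC BaxKO 2 brought both under 0.05 (0.0425 and 0.0437).

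Id4 ranged from 17.9 to 36.5 CPM over the ESC and PGC-ESC lines. It was at 21.7 to 36.5 CPM in PGC-ESC BaxKO, at 33.96 and 17.9 CPM in the ESC BaxKO pair and at 31.1 CPM in the heterozygous line. Against ESC Host the PGC-ESC BaxKO lines did not overlap and differed by 0.41 ± 0.18 (95% interval 0.03 to 0.79, edgeR adjusted p = 0.120).

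**Figure D4:**
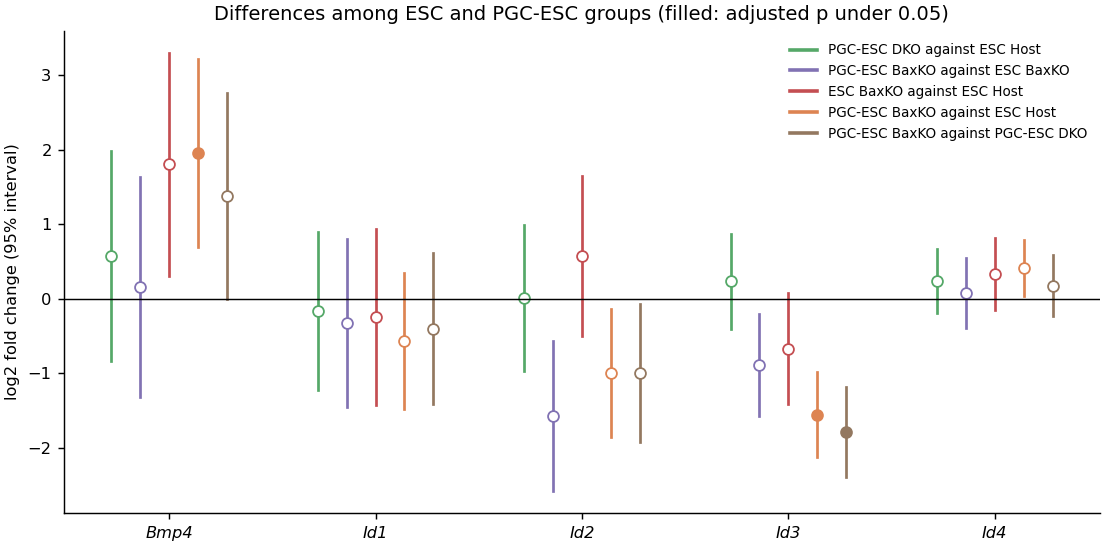
Log2 fold change with its 95% interval (vertical axis) of each gene in the 5 comparisons among ESC and PGC-ESC groups (colours); filled circles are called at an adjusted p under 0.05. The filled circles are Bmp4 in PGC-ESC BaxKO against ESC Host, at 1.96, and Id3 in PGC-ESC BaxKO against ESC Host and against PGC-ESC DKO, at -1.56 and -1.79.

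Other pathway genes in the Bax lines were called about as often as genes in general, with 8 of 48 in PGC-ESC BaxKO against ESC Host (4 higher, 4 lower), 11 of 48 against PGC-ESC DKO (8 higher, 3 lower) and 3 of 48 in ESC BaxKO against ESC Host (2 higher, 1 lower). Smad9, singled out after its values were seen, encodes a BMP receptor substrate. It ranged over 2.27 to 4.43 CPM in the 5 PGC-ESC BaxKO lines, stood at 3.13 and 3.47 CPM in the ESC BaxKO pair and at 4.63 CPM in the heterozygous line, and was at 0.210 to 0.871 CPM in the 7 ESC Host and PGC-ESC DKO libraries. No Bax line overlapped a line of the other strain label. The log2 fold change was 2.60 ± 0.39 in PGC-ESC BaxKO against ESC Host (edgeR adjusted p = 3.9e-04), 2.75 ± 0.45 in ESC BaxKO against ESC Host (0.00219) and 2.86 ± 0.46 in PGC-ESC BaxKO against PGC-ESC DKO (7.6e-04). The last call was lost with the Rn45s covariate (2.21 ± 0.64, 0.0996).

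Ordered by group mean, few neighbours stood apart in their ranges. The share of all genes whose groups do not overlap was not computed, here or above. For Bmp4 the order was PGC-ESC BaxKO (8.05 CPM), ESC BaxKO (7.23), ESC BaxHet (4.35), PGC-ESC DKO (2.90), ESC Host (2.00), EpiLC DKO (1.52) and EpiLC Host (1.30), and ESC BaxKO and ESC BaxHet were the only neighbours without overlap. For Id1 EpiLC Host (7.26) stood apart from EpiLC DKO (3.74), and the other 5 groups, from ESC Host (2.22) to PGC-ESC BaxKO (1.54), overlapped in turn. Id2 ran from ESC BaxKO (11.3) and EpiLC DKO (10.4) to ESC BaxHet (4.04) and PGC-ESC BaxKO (3.79), with a gap only between EpiLC Host (6.41) and ESC BaxHet. Id3 ran from PGC-ESC DKO (29.9) and ESC Host (26.9) to EpiLC Host (8.22) and ESC BaxHet (5.34), the only neighbours without overlap being the last pair. For Id4, ESC Host (19.5) was clear of PGC-ESC DKO (21.9) above it and of EpiLC DKO (2.21) below it. With TMM scaling, Id4 in ESC Host and PGC-ESC DKO overlapped.

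Across the 15 ESC and PGC-ESC lines, 0 of the 10 pairs of members passed the Benjamini-Hochberg correction over the 10, with Pearson or with Spearman coefficients. The largest was between Id3 and Id4 (r = -0.61, permutation p = 0.0175, adjusted p = 0.0717; rho = -0.57, p = 0.0292, adjusted p = 0.245), followed by Id1 and Id2 (r = 0.60, permutation p = 0.0183, adjusted p = 0.0717; rho = 0.37, p = 0.178, adjusted p = 0.442) and Id2 and Id3 (r = 0.59, permutation p = 0.0215, adjusted p = 0.0717; rho = 0.52, p = 0.0490, adjusted p = 0.245). Without the 2 lines farthest from the median they were -0.49, 0.30 and 0.50. Within the 8 Bax lines they were -0.50, 0.67 and 0.59, and within the 7 C57Bl6J lines -0.19, -0.28 and 0.25. Bmp4 and Id1 had r = 0.33 over all 15 lines (rho = 0.34, permutation p = 0.231 and 0.221, adjusted p = 0.365 and 0.442), 0.86 within the 8 Bax lines and 0.47 within the 7 others. For Bmp4 and Id3 the pooled and within-strain values had opposite signs, with r = -0.24 over all 15 lines (rho = -0.24, permutation p = 0.375 and 0.388, adjusted p = 0.468 and 0.506), 0.45 within the 8 Bax lines and 0.83 within the 7 C57Bl6J lines. Within the Rn45s sets of 9 and 6 libraries the Bmp4 and Id1 value was 0.52 and 0.33, and that of Id3 and Id4 was -0.59 and 0.17.

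The genes whose pattern over all 20 libraries was most like each member were named by Pearson r of log2 CPM, with no test, since the points share libraries, depth and the split into ESC and EpiLC. For Id4 they were Osm, Trpm1 and Tfcp2l1, each at r = 0.99, and over the 15 ESC and PGC-ESC libraries alone r was 0.65, 0.50 and 0.41. For Id3 they were Xkr8 (0.93), Sap30bp (0.91) and Alkbh4 (0.90), which kept 0.92, 0.90 and 0.89 without the EpiLCs. For Id1 they were Chrnb1 (0.92), Plppr2 (0.87) and Pbx2 (0.87), for Id2 Dmkn (0.86), Nmb (0.86) and Lamb3 (0.83), and for Bmp4 Slc12a8 (0.87), Gorab (0.87) and Cd244a (0.86). No member was among the most alike genes of another, the highest r between members being 0.56, between Bmp4 and Id4.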

How the data were processed

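The authors deposited raw read counts of 21361 genes in 20 libraries of poly(A) RNA as 1 table. STAR 2.7.7a and build mm10 are named in the submitters' processing notes. The counting tool, annotation and strand setting were not given in the sources used here. Columns were matched to samples by name, and groups came from the sample titles. Levels are CPM over library totals (mean ± SD); folds use TMM scaling. The test was that of edgeR 4.0.16 under R 4.3.3 (quasi-likelihood F test, filterByExpr, 1 coefficient for each of 7 groups, 13 residual degrees of freedom, two-sided, Benjamini-Hochberg over 16363 genes). Values are log2 fold changes ± SE, with 95% intervals. The fit was also run on simulated counts with few changed genes and no line, strain, Rn45s or Y-linked differences, unlike these data. Its outcome is not used here. Correlations used a two-sided permutation test with 100000 resamples. The edgeR p-values weigh a group difference against the spread between libraries within groups. The permutation p-values treat the lines as exchangeable, though they differ in strain label and genotype. Replicates differed by more than counting error (chi-square per gene 6.72 to 223 over 24 pairs).

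The 5 genes and the lists were chosen with earlier results of these data known. Named pathway genes are up to 4 per list, called in either EpiLC conversion, with the smallest adjusted p, and likeness names the 3 genes of highest r. Positions come from GENCODE vM21 and promoter sequences from RefSeq, both of the mm10 assembly.

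EpiLC and parent libraries with the same number are the same line, by their titles and the series' design text. The correlation of their deviations from the group means was 0.111 and 0.172 for the 2 Host pairs and 0.112, 0.116 and 0.0931 for the 3 DKO pairs. Pairs with unlike numbers had -0.172 to 0.0891 in Host and -0.0683 to -0.0296 in DKO cells. The deviations of the 2 EpiLC Host libraries mirror each other, so the Host values are not independent. Alternatives were RLE scaling, no filter, DESeq2 1.42.0, fits of the compared groups only, Rn45s sets (above or below 10000 CPM) as a covariate or only the high set, a replicate block, and leaving out each library. A Y-linked covariate (4 genes averaging above 10 CPM) and the likeness values over 15 libraries were added after seeing the data.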

Additional observations from a re-analysis of the deposited data

Results flagged for a closer look

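In groups of 4 or 5 libraries, 4 of 56 gene and group pairs had 1 library far from the rest. The nominal rate of the rule is about 1 in 20, and the rate in data like these was not measured. Id3 was highest in PGC-ESC BaxKO 5, at 14.9 CPM, with the other 4 lines at 7.31 to 9.44 CPM. Bmpr1a was lowest in the same line, at 75.5 CPM. Nbl1 was highest in PGC-ESC BaxKO 1, at 0.368 CPM, and Msx1 lowest in ESC Host 3, at 0.0309 CPM, both levels of a few counts.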

How the results depend on the processing

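No called value changed direction under any alternative run. For the 5 genes, 652 alternative values stayed on their side of the threshold, 13 lost a call and 5 gained one; for other named genes these were 808, 25 and 21. RLE scaling moved the median of all genes by at most 0.05 (log2). The EpiLC values of Id3 and Id4 were called in every alternative fit that was run.

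The number of genes called moved by more than 1.5 times as follows. DESeq2 called 33 for EpiLC DKO against EpiLC Host, 5 for the difference in response, 71 for PGC-ESC BaxKO against ESC BaxKO, 90 for PGC-ESC DKO against ESC Host and 1419 for ESC BaxKO against ESC Host, against 7, 1, 6, 19 and 821 by edgeR. With only the compared groups, edgeR called 0 for the difference in response (449 at an unadjusted p under 0.05), 0 for PGC-ESC BaxKO against ESC BaxKO (1060), 9 for PGC-ESC DKO, 1024 for PGC-ESC BaxKO and 136 for ESC BaxKO, each against ESC Host. For PGC-ESC BaxKO against ESC BaxKO, RLE scaling gave 0 (1665 at an unadjusted p under 0.05), no filter 10, the Rn45s covariate 2 and the Y-linked covariate 0 (520). The Rn45s covariate gave 1108 for PGC-ESC BaxKO against ESC Host and 204 against PGC-ESC DKO. The Y-linked covariate gave 210 for ESC BaxKO against ESC Host and 2 for the difference in response, which had 0 with only high-Rn45s libraries (654 at an unadjusted p under 0.05). Of the 5 genes, PGC-ESC BaxKO against ESC Host called 1 with only the compared groups, with the Rn45s covariate and with the block, against 2. PGC-ESC BaxKO against PGC-ESC DKO called 0 with the Rn45s covariate and 2 with the Y-linked one, against 1. The cause was not tested.

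The replicate block pairs lines only in the EpiLC conversions, where it changed the calls of Bmpr1a, Dlx3, Tcf12 and Msx1 given above and of no other named gene; the difference in response then had 0 genes called (637 at an unadjusted p under 0.05). Elsewhere groups share only a number, and the block gave 0 for PGC-ESC BaxKO against ESC BaxKO (761 at an unadjusted p under 0.05), 6 for PGC-ESC DKO, 1337 for PGC-ESC BaxKO and 180 for ESC BaxKO against ESC Host, and 418 for PGC-ESC BaxKO against PGC-ESC DKO. It left Bmp4 in PGC-ESC BaxKO against ESC Host at 1.16 ± 0.52 (edgeR adjusted p = 0.185) and Smad9 at adjusted p of 0.104 in ESC BaxKO against ESC Host and 0.0531 in PGC-ESC BaxKO against PGC-ESC DKO. No paired analysis was possible for EpiLC DKO against EpiLC Host because they share 1 number.

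Leaving out 1 library gave 4901 to 7189 genes and 2 to 3 of the 5 for EpiLC Host against ESC Host, 6346 to 7185 genes and 2 of the 5 for EpiLC DKO, 5 to 11 between the EpiLC groups, and 0 to 3 for the difference in response. It gave 0 to 12 for PGC-ESC BaxKO against ESC BaxKO, 14 to 44 for PGC-ESC DKO against ESC Host, 1768 to 3455 genes and 1 to 2 of the 5 for PGC-ESC BaxKO against ESC Host, 182 to 1015 for ESC BaxKO against ESC Host, and 1552 to 4198 genes and 1 to 2 of the 5 for PGC-ESC BaxKO against PGC-ESC DKO. Counts moved by over 1.5 times without EpiLC DKO 1 (11 between EpiLC groups), EpiLC Host 4 or ESC Host 4 (0 and 3 for the difference in response, and 44 for PGC-ESC DKO without ESC Host 4), ESC BaxKO 1 or PGC-ESC BaxKO 1, 2, 3 or 4 (1, 0, 12, 0 and 0 for PGC-ESC BaxKO against ESC BaxKO), ESC Host 3, ESC Host 4 or PGC-ESC BaxKO 4 (1862, 1845 and 1768 for PGC-ESC BaxKO against ESC Host), ESC BaxKO 1, ESC BaxKO 2 or ESC Host 3 (245, 182 and 537 for ESC BaxKO) and PGC-ESC DKO 2 (1552 for PGC-ESC BaxKO against PGC-ESC DKO). Where 1 library remained in a group, it was assumed to vary like the other groups. Groups of 2 to 5 libraries limit all of these values, and Id1, Bmp4, Id4 in EpiLCs and the low pathway genes are also limited by few counts.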
